A study of Mus musculus with 8 samples.

Results

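Respiratory complex I takes electrons from NADH and hands them to ubiquinone, and 36 nuclear genes named after it were followed here in the injured mouse left ventricle. Between antimiR-195 and drug-free hydrogel no difference in these 36 genes passed the test, while their levels varied together from library to library within both groups. The 36 genes are the protein-coding genes whose symbol is Nduf, then a, b, c, s or v, then digits only, out of 38293 gene identifiers counted. This is a rule on names and uses no measured value. It leaves out the assembly factors (Ndufaf), Ndufab1, Ndufa4l2 and the subunits encoded in mitochondrial DNA, which are given separately. All 36 passed the filter on low counts, with 487 to 28097 counts per gene and library.

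The 8 libraries are polyadenylated RNA from left ventricles of C57BL/6J mice. The mice had undergone cardiac ischemia-reperfusion, a ligation of the left anterior descending artery (LAD) followed by release. All hearts received 2 injections of 10 µl of UPy-PEG, a polymer that gels in the tissue and holds a drug there, and were taken 3 days after injury. In 4 libraries the gel carried antimiR-195, a strand that binds and blocks miR-195, a small regulatory RNA (antimiR-195 hearts), and in 4 it carried no drug (hydrogel hearts). No uninjured heart and no gel with a control oligonucleotide is among the 8 libraries, and no label says that they come from 8 separate animals, so p-values rest on the spread among the libraries, which may be technical in part.

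Complex I is an L-shaped enzyme of the inner mitochondrial membrane. Its matrix arm carries the flavin and the iron-sulfur clusters along which electrons run, and its membrane arm pumps protons and holds all the subunits that mitochondrial DNA encodes. Around the core sit accessory subunits that stabilise each arm. The heart, which meets its energy demand almost wholly by oxidative phosphorylation, is rich in the complex, and its activity during reperfusion is a known source of reactive oxygen species.

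Total gene counts were 16872968 to 22751753 per library, and the 36 genes took 1.11% to 2.06% of them in antimiR-195 hearts and 1.17% to 1.67% in hydrogel hearts. Values are CPM, the counts of a gene scaled to a common library size after TMM normalization, and 4 values are listed in the order of replicates 1 to 4. AntimiR-195 replicate 2 stood apart: its correlation with the other libraries across genes was 0.944 to 0.970, and its counts leaned most towards short genes, with a slope of log2 CPM of -0.21 per doubling of gene length. All 16 cardiomyocyte markers were detected and summed to 105580 to 126980 CPM in antimiR-195 hearts and 101080 to 126960 CPM in hydrogel hearts. In pieces of tissue, fewer cardiomyocytes and less RNA of a gene per cardiomyocyte cannot be told apart.

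The oligonucleotide in the gel is directed at miR-195, so the microRNA and its matches in the complex I genes are shown first. Sequences are from RefSeq on GRCm38.p6, written 5′ to 3′, with the seed (bases 2 to 8) in capitals. The same seed, AGCAGCA, is shared by miR-15a-5p, miR-15b-5p and miR-16-5p of this family.
miR-195a-5p, chr11:70235062-70235082, plus strand: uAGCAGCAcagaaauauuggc
miR-497a-5p, chr11:70234730-70234751, plus strand: cAGCAGCAcacugugguuugua

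A site counted here pairs either with all of seed bases 2 to 8, or with bases 2 to 7 and has an A opposite base 1. Such a site was found in the longest annotated 3′ UTR of 2 of the 36 genes (5.56%), against 3671 of 12960 tested protein-coding genes (28.3%). The 3′ UTRs of the complex I genes are short, with a median of 196 bases against 1195 bases, and per kilobase of 3′ UTR they held 0.128 sites against 0.255. The 2 genes are Ndufb4, with a site of the first kind that pairs with the whole seed, and Ndufv2, with one of the second kind, and their sites (capitals, from GENCODE M21 transcripts on GRCm38, coordinates of the capitals) are the following.
Ndufb4, chr16:37647246-37647252, minus strand: gaacgtgagcTGCTGCTgaggcgctagc
Ndufv2, chr17:66079369-66079375, minus strand: agtaacttgcaGCTGCTAaatattatgt
A match of letters is not evidence that the microRNA acts there, and the log2 fold changes of antimiR-195 over hydrogel were 0.16 ± 0.22 for Ndufb4 and 0.08 ± 0.19 for Ndufv2 (SE, n = 4 per group). Neither passed the test, and the other 34 genes held no such site in the 3′ UTR searched.

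Promoters were searched because the 36 genes moved together over the libraries. For 32 of them RefSeq gave a window of 300 bases on GRCm38.p6, from 250 before to 50 after the start, and 4 letter strings were searched on both strands. Windows of the other 4 were not used here. The YY1 string AAGATGGC was in 7 of 32 windows (21.9%), against 3.19% of all 27025 genes with such a window. This background was not restricted to tested or protein-coding genes. The NRF1 string GCATGCGC was in 3 (9.38%, against 3.05%), the estrogen-related receptor string AAGGTCA in 3 (9.38%, against 5.38%), and the ETS string CCGGAAG in 4 (12.5%, against 9.93%). The 7 windows with the YY1 string, in capitals with up to 11 bases on either side, are shown because the string lies at the same kind of place in each.
Ndufa3, chr7:3617384-3617413, plus strand: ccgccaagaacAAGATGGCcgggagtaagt
Ndufa9, chr6:126849097-126849126, minus strand: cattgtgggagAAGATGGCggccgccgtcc
Ndufb8, chr19:44555393-44555415, minus strand: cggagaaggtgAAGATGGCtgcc
Ndufc1, chr3:51408915-51408944, minus strand: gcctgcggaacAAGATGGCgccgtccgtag
Ndufs4, chr13:114388045-114388070, minus strand: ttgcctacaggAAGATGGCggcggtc
Ndufs6, chr13:73328433-73328460, minus strand: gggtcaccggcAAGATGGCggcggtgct
Ndufs7, chr10:80249462-80249491, plus strand: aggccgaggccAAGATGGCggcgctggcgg
In all 7 the string was on the gene's own strand, 22 to 38 bases after the start, and the ATG within it was the annotated start codon of the gene. These windows therefore lie on the transcribed sequence at the beginning of the coding part, and a match is a description of the letters, not a bound site. The 3 genes with the NRF1 string were Ndufa6, Ndufa8 and Ndufa11, at offsets of -83, -8 and -60 bases from the start, and in Ndufa11 a second match on overlapping letters began at -58.

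In the comparison of antimiR-195 with hydrogel hearts, edgeR's quasi-likelihood test across 13972 genes called 0 of the 36 genes at an adjusted p below 0.05, and percent called over all tested genes was also 0%. At an unadjusted p below 0.05 it was 0 of 36, against 1.27% of all tested genes. In 0 of 36 did the CPM of the groups not overlap, against 1.07% of all tested genes. The log2 fold change of antimiR-195 over hydrogel was positive for 24 genes and negative for 12, with a median of 0.05 beside 0.01 for all tested genes. The largest positive value was 0.21, for Ndufb10, and standard errors were 0.14 to 0.32. All 36 of the 95% intervals held 0. Their outer bounds were -0.59 and 0.89 and their median half-width was 0.48, so smaller differences in either direction were not detectable with these libraries. These are intervals for single genes. Calls were adjusted over 13972 genes, so differences larger than the half-width could go uncalled too. Without antimiR-195 replicate 2 the median was -0.18 and 35 of 36 values were negative, and without hydrogel replicate 3 it was 0.19 and 2 of 36 were negative (0 genes called in either). It was -0.03 without hydrogel replicate 4 and -0.10, with 35 of 36 negative, in limma-voom with quality weights, also with 0 genes called.

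**Figure D1:**
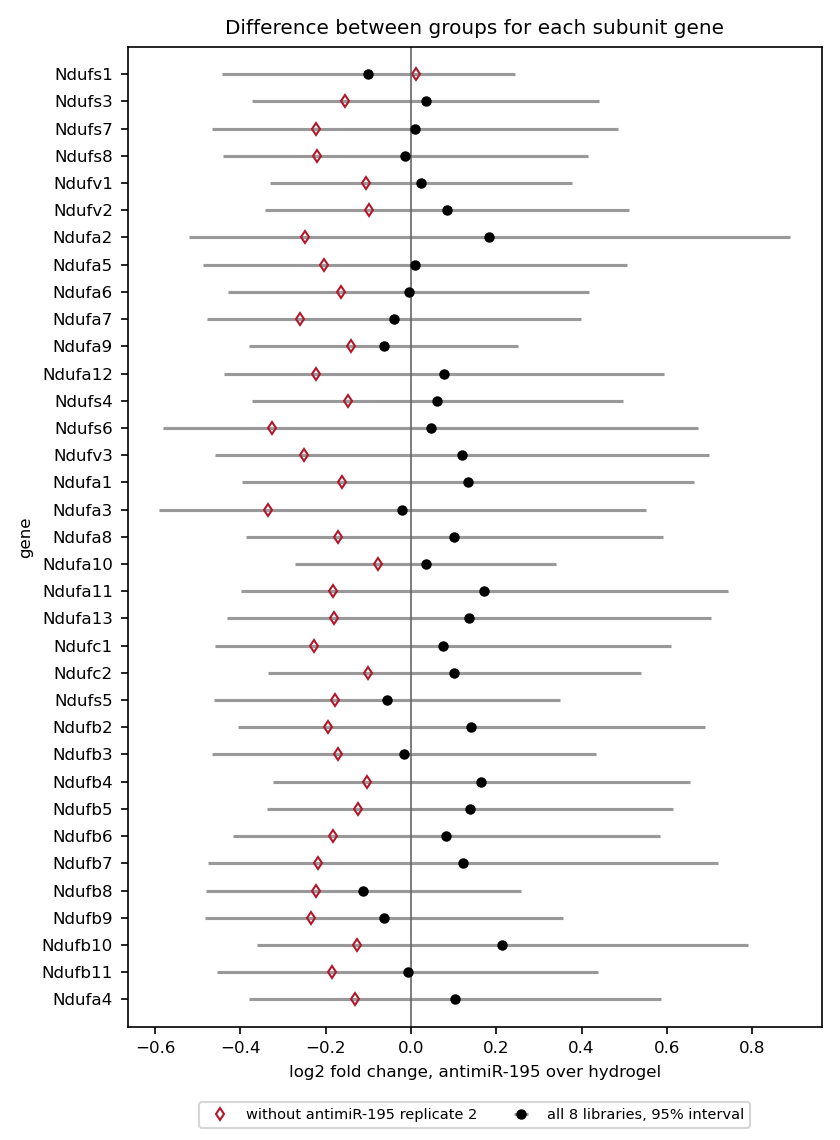
Log2 fold change of antimiR-195 over hydrogel (x axis) for 35 of the 36 genes, ordered by their place in the enzyme; points are estimates from all 8 libraries with 95% intervals, and open diamonds are estimates without antimiR-195 replicate 2. Every interval drawn crosses 0, and 34 of the 35 diamonds lie below 0, the exception being Ndufs1 at 0.01.

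The core subunits of the matrix arm had a median log2 fold change of 0.01. Ndufv1, which binds the flavin and receives the electrons of NADH, had 549, 717, 475 and 576 CPM in antimiR-195 hearts and 577, 548, 681 and 474 CPM in hydrogel hearts. Its partner Ndufv2, which carries an iron-sulfur cluster, had 760.4, 989, 561 and 645 CPM in antimiR-195 hearts and 709.7, 652, 855 and 569.6 CPM in hydrogel hearts. In both genes the highest library was antimiR-195 replicate 2, followed by hydrogel replicate 3, and the groups overlapped. Their log2 fold changes were 0.02 ± 0.16 and 0.08 ± 0.19 (SE, n = 4 per group).

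Ndufs1 (chr1:63143596-63176833 on GRCm38, minus strand), the large subunit that carries several iron-sulfur clusters, had 619.5, 419, 626 and 612 CPM in antimiR-195 hearts and 607, 615, 685 and 534 CPM in hydrogel hearts. It behaved unlike the other genes: its lowest value was in antimiR-195 replicate 2, where 34 of the 36 genes stood above their own mean, and its highest in hydrogel replicate 3. The log2 fold change was -0.10 ± 0.16, and 0.01 without antimiR-195 replicate 2.

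Core subunits on the path to ubiquinone followed the common pattern. Ndufs3 had 242, 338, 199.7 and 222 CPM in antimiR-195 hearts and 250.2, 230.3, 299 and 199 CPM in hydrogel hearts. Ndufs7, which holds the last cluster before ubiquinone, had 602, 887, 452 and 545 CPM in antimiR-195 hearts and 669, 556, 759 and 487 CPM in hydrogel hearts. Ndufs8, another iron-sulfur subunit, had 212, 321, 181 and 214 CPM in antimiR-195 hearts and 221, 227, 296 and 193 CPM in hydrogel hearts. In all 3 the order of the libraries had antimiR-195 replicate 2 first and hydrogel replicate 3 second, with antimiR-195 replicate 3 or hydrogel replicate 4 last. Their log2 fold changes were 0.03 ± 0.18, 0.01 ± 0.22 and -0.01 ± 0.19. Without antimiR-195 replicate 2 they were -0.15, -0.22 and -0.22.

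**Figure D2:**
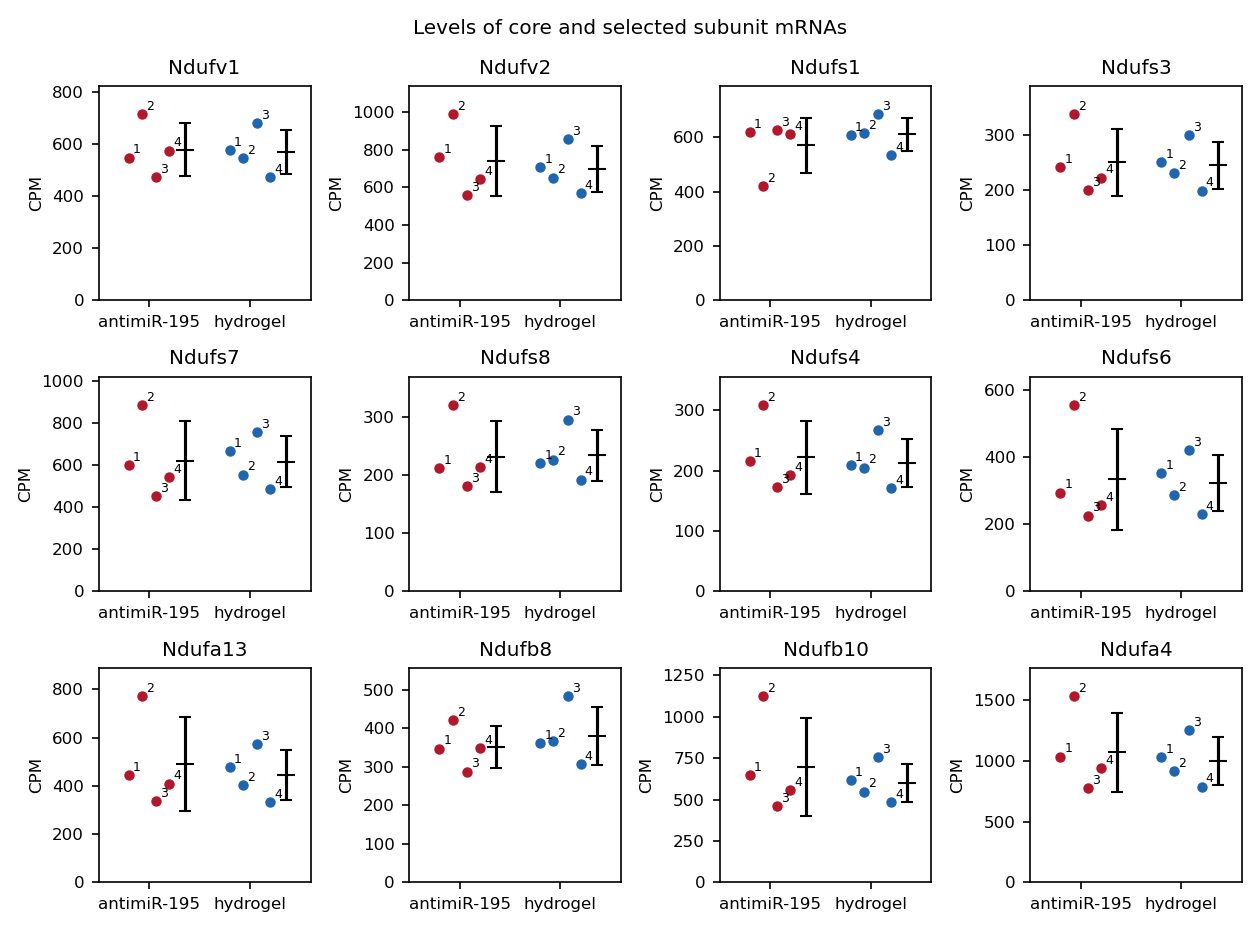
CPM (y axis, from 0) of 12 genes, core subunits first, in antimiR-195 hearts (red) and hydrogel hearts (blue); each point is a library with its replicate number, and the bar is the mean ± SD of 4 libraries. AntimiR-195 replicate 2 is the top red point in every panel except Ndufs1, where it is the lowest red point at 419 CPM, and hydrogel replicate 3 is the top blue point in every panel.

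Of the 9 accessory subunits of the matrix arm, 6 log2 fold changes were positive and 3 negative, with a median of 0.05 and a range of -0.06 to 0.18. Ndufs4, whose loss in mice causes a known model of complex I deficiency, had 216, 309, 172 and 192 CPM in antimiR-195 hearts and 209, 205, 267 and 172 CPM in hydrogel hearts. Ndufs6, a zinc-binding subunit at the base of the arm, had 294, 554, 226 and 258 CPM in antimiR-195 hearts and 352, 287, 421 and 229 CPM in hydrogel hearts. AntimiR-195 replicate 2 was highest for both, and in Ndufs6 it was 554 CPM against 294 CPM in the next antimiR-195 library. The log2 fold changes were 0.06 ± 0.20 for Ndufs4 and 0.05 ± 0.28 for Ndufs6. Without antimiR-195 replicate 2 they were -0.15 and -0.33.

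Ndufa2 varied most of all 36 genes, with an SD of 0.52 in log2 CPM over the 8 libraries, and ran between 186 and 527 CPM in antimiR-195 hearts and between 185 and 362 CPM in hydrogel hearts. Its log2 fold change of 0.18 ± 0.32 had the widest interval, -0.52 to 0.89. Ndufv3, a small flavoprotein-module subunit, averaged 432 ± 192 CPM in antimiR-195 hearts and 398 ± 74.7 CPM in hydrogel hearts (SD, n = 4 each). Ndufa9, which sits where the arms meet, was among the steadiest genes, with 413 ± 41.8 CPM in antimiR-195 hearts and 432 ± 69.3 CPM in hydrogel hearts. The other 4 genes of the class overlapped between the groups as well. Ndufa5 ran between 384 and 731 CPM in antimiR-195 hearts and between 397 and 681 CPM in hydrogel hearts, and Ndufa6 ran between 308 and 484 CPM in antimiR-195 hearts and between 278 and 459 CPM in hydrogel hearts. Ndufa7 ran between 178 and 323 CPM in antimiR-195 hearts and between 188 and 290.2 CPM in hydrogel hearts, and Ndufa12 ran between 129 and 281 CPM in antimiR-195 hearts and between 144 and 218 CPM in hydrogel hearts. Ndufa5, Ndufa6, Ndufa7 and Ndufa12 had log2 fold changes of 0.01, -0.01, -0.04 and 0.08, all smaller than their standard errors.

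The proximal membrane arm had 9 accessory genes, 7 with positive and 2 with negative log2 fold changes and a median of 0.10. Ndufa13, also known as GRIM-19 and needed for assembly of the complex in mice, had 445, 773, 337 and 409.6 CPM in antimiR-195 hearts and 479.8, 403, 573 and 333 CPM in hydrogel hearts. Ndufa11, a membrane protein near the junction of the arms, had 413, 771, 317 and 380.4 CPM in antimiR-195 hearts and 459.8, 366, 498 and 346 CPM in hydrogel hearts. Genes on the opposite strand overlap the exons of both, and 28.5% of the 50-base words of Ndufa13 and 12.5% of those of Ndufa11 also occur in other genes, so their counts are uncertain. AntimiR-195 replicate 2 was highest in both, and the other 3 antimiR-195 values lay within the hydrogel range for Ndufa13 and within or just below it for Ndufa11. The log2 fold changes were 0.14 ± 0.26 and 0.17 ± 0.26, and without antimiR-195 replicate 2 they were -0.18 and -0.18.

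Ndufs5, a small subunit on the intermembrane-space side, had 43.3, 47.9, 29.1 and 36.2 CPM in antimiR-195 hearts and 42.6, 38.6, 50.6 and 30.9 CPM in hydrogel hearts. Here the groups covered nearly the same range, and the log2 fold change was -0.06 ± 0.18. Ndufa10 was the steadiest of the 36 genes over the libraries, with an SD of 0.16 in log2 CPM and 668 ± 93.0 CPM in antimiR-195 hearts and 652 ± 67.1 CPM in hydrogel hearts. Ndufa1, a small membrane subunit of an X-linked gene, ran between 118 and 266 CPM in antimiR-195 hearts and between 124 and 198 CPM in hydrogel hearts. Ndufa3 ran between 189.7 and 447 CPM in antimiR-195 hearts and between 216 and 383 CPM in hydrogel hearts, and Ndufa8, a subunit on the intermembrane-space side, ran between 304 and 623 CPM in antimiR-195 hearts and between 327 and 479.6 CPM in hydrogel hearts. Ndufc1 ran between 209 and 435 CPM in antimiR-195 hearts and between 211 and 339 CPM in hydrogel hearts, and Ndufc2, its neighbour in the complex, ran between 209 and 389 CPM in antimiR-195 hearts and between 230 and 319 CPM in hydrogel hearts. In all 5 the highest library was antimiR-195 replicate 2 and the lowest antimiR-195 replicate 3, so the antimiR-195 range enclosed the hydrogel range. Ndufa1, Ndufa3, Ndufa8, Ndufc1 and Ndufc2 had log2 fold changes of 0.13, -0.02, 0.10, 0.08 and 0.10, each smaller than its standard error.

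In the distal membrane arm 10 of 11 listed accessory genes were present under the symbols searched, and Ndufb1 was not analysed here. The log2 fold change was positive for 6 and negative for 4, with a median of 0.10. Ndufb10 (chr17:24722060-24724478 on GRCm38, minus strand), which reaches into the intermembrane space, had 646, 1125, 459.9 and 557 CPM in antimiR-195 hearts and 615, 549, 756 and 484 CPM in hydrogel hearts. Ndufb4, a membrane subunit, had 57.2, 91.8, 46.5 and 50.9 CPM in antimiR-195 hearts and 64.8, 48.2, 63.8 and 43.0 CPM in hydrogel hearts. Ndufb8, whose protein is widely used on blots as a marker of the assembled complex, had 347, 422, 288 and 348 CPM in antimiR-195 hearts and 362, 366, 484 and 306 CPM in hydrogel hearts. AntimiR-195 replicate 2 was highest for Ndufb10 and Ndufb4 and hydrogel replicate 3 for Ndufb8, and the groups overlapped in all 3.

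Ndufb10 had the largest positive log2 fold change of the 36 genes, 0.21 ± 0.26 (unadjusted p = 0.429, adjusted p = 0.9999, edgeR's quasi-likelihood test), and -0.13 without antimiR-195 replicate 2. For Ndufb4 it was 0.16 ± 0.22, and -0.10 without that library. For Ndufb8 it was -0.11 ± 0.17, and -0.22 without it. Ndufb4 shares 37.0% of its 50-base words with other genes, among them the near copy Ndufb4c, and Ndufb8 overlaps another gene on its own strand, so both counts are uncertain.

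Of the remaining distal-arm genes, Ndufb3 ran between 167 and 291 CPM in antimiR-195 hearts and between 177 and 294 CPM in hydrogel hearts, and Ndufb5 ran between 376 and 747 CPM in antimiR-195 hearts and between 389 and 569.7 CPM in hydrogel hearts. Ndufb6 ran between 111 and 225 CPM in antimiR-195 hearts and between 112 and 186 CPM in hydrogel hearts, and Ndufb7, a subunit on the intermembrane-space side, ran between 207 and 524 CPM in antimiR-195 hearts and between 232 and 401 CPM in hydrogel hearts. Ndufb11, encoded on the X chromosome, ran between 200.3 and 370.3 CPM in antimiR-195 hearts and between 233 and 370.1 CPM in hydrogel hearts. In all 5 the lowest library was antimiR-195 replicate 3, and the highest was antimiR-195 replicate 2 except for Ndufb3, where it was hydrogel replicate 3. Ndufb9 had 625, 868, 520.2 and 621 CPM in antimiR-195 hearts and 690.1, 655, 869.8 and 538 CPM in hydrogel hearts, highest in hydrogel replicate 3 by a margin of less than 2 CPM over antimiR-195 replicate 2. Ndufb3, Ndufb5, Ndufb6, Ndufb7, Ndufb9 and Ndufb11 had log2 fold changes of -0.02, 0.14, 0.08, 0.12, -0.06 and -0.01.

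Ndufa4 carries a complex I name but its protein is now placed in cytochrome c oxidase, complex IV. It had 1037, 1537, 778 and 939 CPM in antimiR-195 hearts and 1032, 918, 1254 and 790 CPM in hydrogel hearts. AntimiR-195 replicate 2 was highest, hydrogel replicate 3 second and antimiR-195 replicate 3 lowest, the groups overlapped, and its log2 fold change was 0.10 ± 0.22.

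Levels of different genes are compared per length, as the RPKM values the authors deposited. Ndufa4 was highest, with 2209.7 ± 723 RPKM in antimiR-195 hearts and 2001 ± 339.8 RPKM in hydrogel hearts, and Ndufb9 was second, with 1024 ± 251 RPKM in antimiR-195 hearts and 1042 ± 177 RPKM in hydrogel hearts. At the low end stood Ndufs5, with 46.0 ± 10.6 RPKM in antimiR-195 hearts and 46.6 ± 8.15 RPKM in hydrogel hearts, and Ndufb2, with 29.0 ± 12.5 RPKM in antimiR-195 hearts and 25.6 ± 4.49 RPKM in hydrogel hearts. Ndufb2, a small membrane subunit, had 140, 258, 118 and 127 CPM in antimiR-195 hearts and 160.5, 127, 179 and 117 CPM in hydrogel hearts. It was highest in antimiR-195 replicate 2, the groups overlapped, and the log2 fold change was 0.14 ± 0.25, and -0.19 without that library. These ranks depend on the length used: the RPKM values imply 5628 bases for Ndufb2, 4522 for Ndufb7 and 3146 for Ndufb8, where the principal transcripts of Ndufb7 and Ndufb8 have 623 and 680 bases, which lowers their RPKM. Ndufs5 shares 31.1% of its 50-base words with another gene, BC002163, so reads could be lost to it. In all, 15 of the 36 genes overlap an exon of another gene and 12 share over 10% of their 50-base words with one, most of all Ndufs3 with 39.7%, and their counts are uncertain. For overlaps on opposite strands this holds because the strand setting of the counting is not given in the sources used here.

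**Figure D3:**
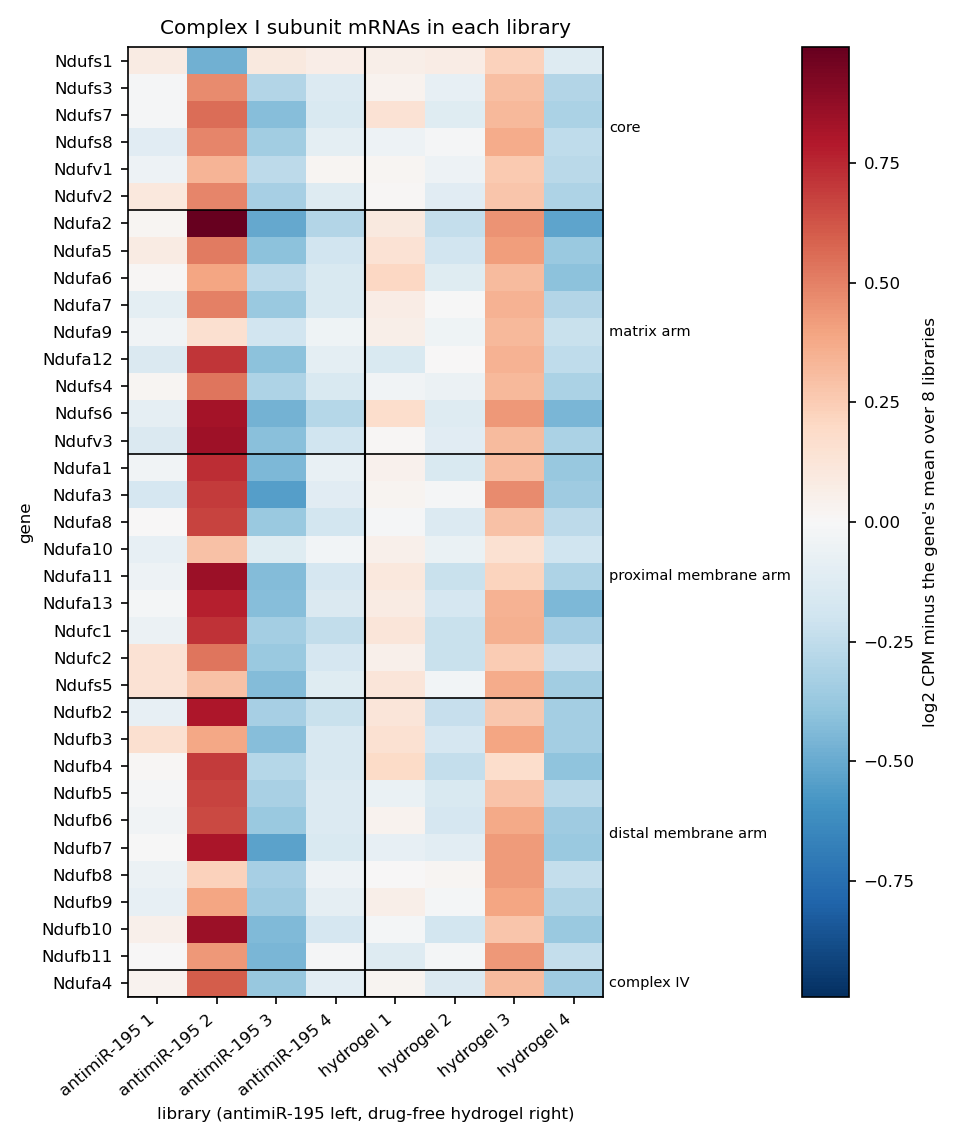
Difference of log2 CPM from each gene's mean over the 8 libraries (colour, red above and blue below) for 35 of the 36 genes (rows, grouped by place in the enzyme) in 4 antimiR-195 and 4 hydrogel libraries (columns). AntimiR-195 replicate 2 and hydrogel replicate 3 are red in nearly every row and hydrogel replicate 4 is blue in every row, and Ndufs1 is the row in blue in antimiR-195 replicate 2.

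Over the libraries the genes moved as a block. Their mean log2 CPM differed from its average over the 8 libraries by -0.02, 0.53, -0.35 and -0.13 in antimiR-195 hearts and by 0.05, -0.11, 0.33 and -0.31 in hydrogel hearts. The highest and the lowest library were thus both antimiR-195 hearts, and the hydrogel hearts covered most of the same span. The highest of the 8 values was in antimiR-195 replicate 2 for 29 genes and in hydrogel replicate 3 for 7, against 30.8% and 11.5% of all tested genes. The lowest was in antimiR-195 replicate 3 for 24 genes, in hydrogel replicate 4 for 11 and in antimiR-195 replicate 2 for 1, against 18.1%, 9.73% and 33.1% of all tested genes. Hydrogel replicate 3 had 36 of 36 genes above their own mean and hydrogel replicate 4 had 0.

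Once the mean of the other 35 genes was subtracted, the median SD of a gene over the libraries was 0.11, against 0.33 before, and it was smaller for 33 of the 36 genes. For the 3687 other tested genes at or above the level of the lowest of the 36, subtracting the mean of the 36 gave 0.33 against 0.20, and it lowered the SD of 24.4% of them. They were chosen on level only, not on length, and equally short genes were not compared separately. The SDs therefore do not show that moving together is particular to complex I. Ndufs3, Ndufa4, Ndufs4 and Ndufs7 followed the block most closely, with SDs of 0.04, 0.04, 0.04 and 0.05 after subtraction. Ndufs1 followed it least, with 0.45 after subtraction and 0.22 before. The SD of Ndufa10, 0.16, was not lowered either. The core subunits as a class stood 0.25 above their average in antimiR-195 replicate 2, and the accessory subunits of the matrix arm, the proximal and the distal membrane arm 0.61, 0.62 and 0.59. The core mean includes Ndufs1 at -0.48 in that library, while Ndufv1 and Ndufs7 stood there at 0.33 and 0.55.

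Gene length moved with this pattern. The principal transcripts of the 36 genes had a median of 868 bases, and the gene lengths implied by RPKM a median of 1283 bases against 3627 bases for all tested genes. Across all tested genes the slope of log2 CPM per doubling of gene length was -0.03, -0.21, 0.15 and 0.06 in antimiR-195 hearts and -0.02, 0.05, -0.08 and 0.07 in hydrogel hearts, and the 2 libraries with the steepest lean to short genes, antimiR-195 replicate 2 and hydrogel replicate 3, were those with the highest complex I levels. With the length trend of each library removed, the mean of the 36 genes differed from its average by -0.06, 0.23, -0.15 and -0.05 in antimiR-195 hearts and by 0.04, -0.03, 0.24 and -0.21 in hydrogel hearts. The spread was smaller, and 36 of 36 genes were still above their mean in hydrogel replicate 3 and 0 in hydrogel replicate 4. The trend was taken on the implied lengths. These exceed the principal transcript for some of the 36 genes, as for Ndufb7 (4522 against 623 bases) and Ndufb8 (3146 against 680). Whether the remaining pattern goes with length was not tested. Ndufs1, low in antimiR-195 replicate 2, has a principal transcript of 2661 bases, the second longest of the 36 after Ndufb2 with 4371. Ndufb2 stood 0.80 above its own mean in that library. Of its 4371 bases 4012 are annotated 3′ UTR, and whether this long form was present in the hearts was not tested. Across the 36 genes the correlation of log2 transcript length with the difference was -0.05, -0.36, 0.63 and 0.28 in antimiR-195 hearts. In hydrogel hearts it was -0.06, 0.14, -0.45 and 0.45. The part of length in the low value of Ndufs1 was not tested. The median log2 fold change with the trend removed was 0.01, and 0 of 36 genes were called.

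**Figure D4:**
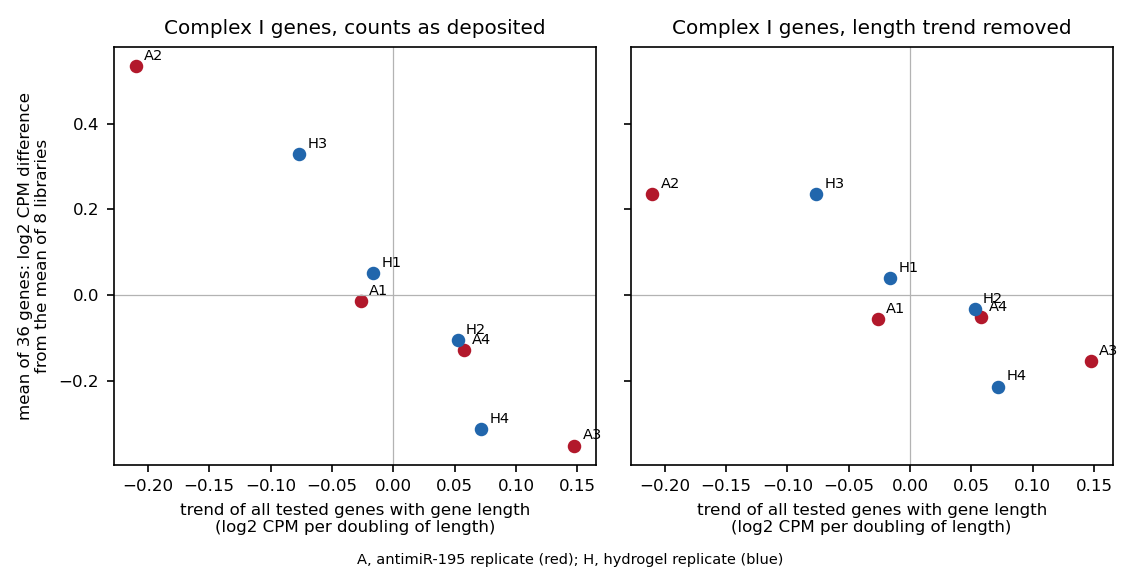
Mean difference of the 36 genes from their average over the 8 libraries (y axis, log2 CPM) against the trend of all tested genes with gene length in that library (x axis), with counts as deposited (left panel) and with the trend removed (right panel); A1 to A4 are antimiR-195 hearts and H1 to H4 hydrogel hearts. On the left the points run between 0.53 for A2 and -0.35 for A3, and on the right between 0.24 for H3 and -0.21 for H4.

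The genes around complex I were read from the same fit, and 0 of them were called. Of the 7 subunits that mitochondrial DNA encodes, 5 were tested, and all 5 log2 fold changes were negative with a median of -0.17. The pair with the smallest p was mt-Nd2, with 18310 ± 7682 CPM in antimiR-195 hearts and 22489 ± 3050.3 CPM in hydrogel hearts, and mt-Nd4, with 19716 ± 5930.2 CPM in antimiR-195 hearts and 22748 ± 3431 CPM in hydrogel hearts. Their log2 fold changes were -0.30 ± 0.30 and -0.21 ± 0.23. As a mean of log2 CPM, these 5 genes differed by -0.80 from their average over the libraries in antimiR-195 replicate 2 and the 36 nuclear genes by 0.53, and without that library their median was -0.05. The mean of the 5 does not hold for each of them, since mt-Nd6 had 99.0 CPM in antimiR-195 replicate 2, the second highest of its 8 values, and its highest, 125 CPM, in hydrogel replicate 3.

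Of 17 assembly factors, which build the complex and then leave it, 16 were tested, with 8 positive and 8 negative values and a median of -0.01. Acad9 had a log2 fold change of -0.17 ± 0.12 and Foxred1 of -0.11 ± 0.10. As a list they differed from their average in the direction of the subunits by less, 0.18 in antimiR-195 replicate 2 and 0.19 in hydrogel replicate 3. Ndufab1, an acyl carrier protein that is also a subunit, and Ndufa4l2, a hypoxia-induced relative of Ndufa4, had log2 fold changes of 0.15 ± 0.20 and 0.20 ± 0.23, and of -0.07 and -0.13 without antimiR-195 replicate 2.

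The other complexes of the chain gave medians of -0.06 over 4 genes of complex II, 0.04 over 9 genes of complex III, 0.05 over 12 of complex IV and 0.10 over 16 of complex V, the ATP synthase. Per list the 2 genes with the smallest p were Sdhd (-0.07 ± 0.12) and Sdhc (-0.06 ± 0.14), Uqcr10 (0.18 ± 0.24) and Uqcrc2 (-0.10 ± 0.13), Cox5b (-0.18 ± 0.20) and Cox8a (0.08 ± 0.16), and Atp5l (0.42 ± 0.26) and Atpif1 (0.22 ± 0.25), given as log2 fold changes. Without antimiR-195 replicate 2 the medians were -0.09 for complex II, -0.14 for complex III, -0.20 for complex IV and -0.10 for complex V, and Uqcr10, Cox8a and Atpif1 had -0.14, -0.09 and -0.09, so the positive signs of these 3 medians and 3 genes rested on that library. Atp5l had 0.11 without it. In antimiR-195 replicate 2 the lists of complexes III, IV and V differed from their averages by 0.44, 0.59 and 0.49, and that of complex II by -0.06. In hydrogel replicate 4 complexes II, III, IV and V differed by -0.16, -0.27, -0.34 and -0.29. Median gene lengths implied by RPKM were 2744.5, 1237, 674 and 1918 bases for complexes II, III, IV and V. The part of length in these differences was not tested.

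The 13 enzyme genes of the tricarboxylic acid cycle, which supplies NADH to complex I, had 3 positive and 10 negative log2 fold changes with a median of -0.04. Cs, citrate synthase, had -0.10 ± 0.16, and 0.01 without antimiR-195 replicate 2. In antimiR-195 replicate 2 this list differed from its average by -0.18, opposite in sign to the complex I genes. Its genes were longer, with a median implied length of 2828 bases against 1283 for the 36 genes. The part of length in this contrast was not tested. Of 9 regulators of mitochondrial genes, 5 values were positive and 4 negative. Nrf1, which drives many respiratory genes, had 14.9 ± 1.62 CPM in antimiR-195 hearts and 11.9 ± 0.43 CPM in hydrogel hearts and a log2 fold change of 0.33 ± 0.12 (unadjusted p = 0.0206, adjusted p = 0.9999, edgeR's quasi-likelihood test). Nrf1 was highest in antimiR-195 replicate 2, at 16.9 CPM, and its log2 fold change was 0.25 without that library. Of the 9 regulators 1, Nrf1, had an unadjusted p below 0.05, against 1.27% of all tested genes. Esrra, an estrogen-related receptor that also drives respiratory genes, had -0.14 ± 0.13.

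**Figure D5:**
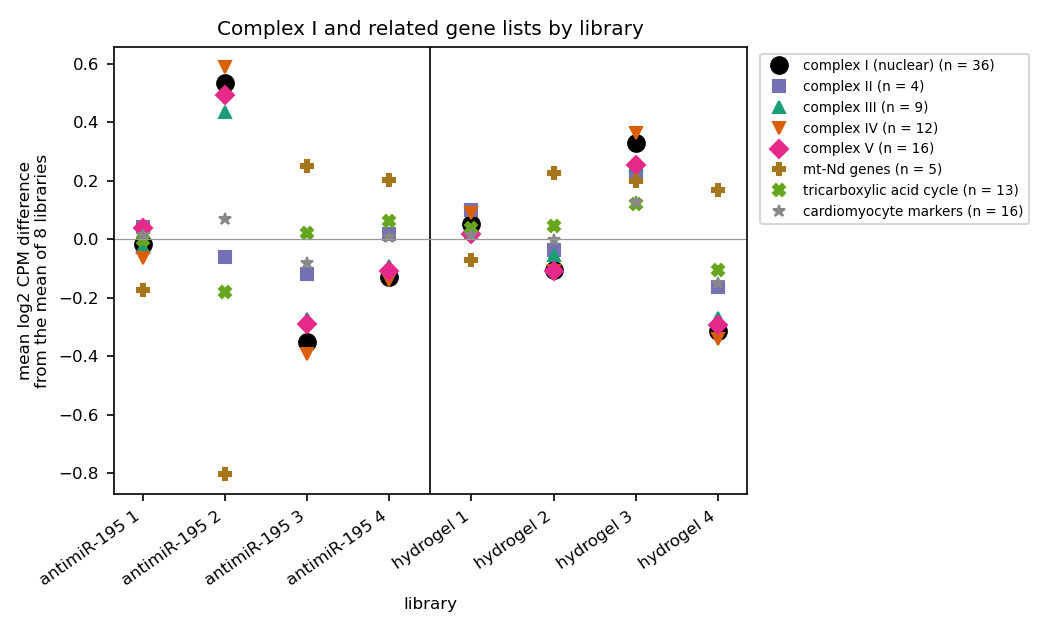
Mean difference of log2 CPM from the average over 8 libraries (y axis) for the 36 nuclear complex I genes and related gene lists in 4 antimiR-195 and 4 hydrogel libraries (x axis). Complexes III, IV and V lie near the complex I points in every library, while in antimiR-195 replicate 2 the mean of the 5 mitochondrially encoded mt-Nd genes lies at -0.80 and the complex I genes at 0.53.

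Marker lists of other cells differed between libraries too. The mean of the 16 cardiomyocyte markers ran between -0.15 in hydrogel replicate 4 and 0.13 in hydrogel replicate 3, but single markers differed in opposite directions in antimiR-195 replicate 2. There Tnnc1 had 5370 CPM, against 2011 to 3102 CPM in the other libraries, and Ryr2 had 498 CPM, against 771 to 1568 CPM in the others. With the mean of the 16 markers as a covariate the median log2 fold change of the 36 genes was 0.03. The 12 fibroblast and matrix genes, all detected, summed to 7757 to 10872 CPM in antimiR-195 hearts and 5422 to 10146 CPM in hydrogel hearts. This sum was highest in antimiR-195 replicate 2 and lowest in hydrogel replicate 3. Single genes did not all follow the sum. Dcn and Pdgfra were at their lowest in the former library, and Dcn was at its highest in the latter. The 12 macrophage markers summed to 1616 to 2747 CPM in antimiR-195 hearts and 1885 to 2576 CPM in hydrogel hearts. Of 8 neutrophil markers Ly6g was at 0 in every library, and the 8 summed to 30.3 to 81.8 CPM in antimiR-195 hearts and 32.3 to 41.8 CPM in hydrogel hearts, highest in antimiR-195 replicate 2. S100a9 and S100a8 gave 31.9 and 20.5 CPM of the sum there, and Mmp9 and Retnlg were also highest in that library. Csf3r and Mmp8 were highest in hydrogel replicate 4 and Cxcr2 in hydrogel replicate 1. The part of fibroblasts, macrophages and neutrophils in the level of the complex I genes was not tested.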

How the data were processed

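TRIzol extraction and TruSeq stranded mRNA libraries are given per the labels' protocols. STAR, HTSeq, DESeq and the GRCm38 build appear, without versions, in the submitters' processing notes. The authors deposited whole-number gene counts per library, and RPKM values whose implied gene length was the same in every library. For the annotation release and strand setting, nothing is given in the sources used here. Lines of HTSeq without a gene did not enter library sizes or tests. Reads outside genes made up 6.38% to 7.55% of uniquely aligned reads, and 42.1% to 47.8% of all lines were multiple alignments.

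Gene names came from GENCODE M21 (36345 of 38293 identifiers matched). Genes kept by filterByExpr (13972) were scaled by TMM and tested, 4 against 4 libraries from the labels' drug field, without covariates, with edgeR 4.0.16 in R 4.3.3 (glmQLFit and glmQLFTest, two-sided). P-values were adjusted by Benjamini-Hochberg over all tested genes, with a threshold of 0.05. Deviations per library use log2 CPM with a prior count of 2, except in the heat map, which adds none. The test was checked on simulated counts, where it called 76 of 100 genes with a log2 change of 1 and 95 of 100 with a change of 2. Smaller changes were not simulated. Genes were drawn independently, without a length trend or a shift shared within a library. Total gene counts of 16872968 to 22751753 limit the precision through counting error only; the biological coefficient of variation was 19.1%.

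Alternatives were other scalings and filters, DESeq2 1.42.0, limma 3.58.1 (voom with quality weights, and trend on log2(RPKM + 0.1) or log2(RPKM + 1)), a cardiomyocyte covariate, removal of each library's length trend (loess, span 0.5), and leaving out each library. Values in every library are given for core subunits, Ndufs4, Ndufs6, Ndufa13, Ndufa4, the 3 genes with the smallest p in each direction and the 2 with the highest and lowest mean RPKM, and of each related list the 2 genes with the smallest p are named. Some genes that met this rule are not reported here. The 36 genes and all lists were chosen with earlier results of these data known. Replicate numbers follow accession order and pair nothing.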

Additional observations from a re-analysis of the deposited data

Results flagged for a closer look

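Of 74 groups of 4 values examined for a sample far from the others, 3 were singled out, where chance singles out about 1 in 20. All 3 concern antimiR-195 replicate 2. Ndufb2 had 258.1 CPM there, the highest of the antimiR-195 hearts, with the nearest at 140 CPM. Ndufv3 had 717.6 CPM there, again the highest, with the nearest at 362.7 CPM. Ndufs1 had 419 CPM there, the lowest, with the nearest at 612.5 CPM. Without this library the log2 fold changes of antimiR-195 over hydrogel were -0.19 for Ndufb2, -0.25 for Ndufv3 and 0.01 for Ndufs1, against 0.14, 0.12 and -0.10 with it.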

How the results depend on the processing

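No setting called any of the 36 genes or any of all tested genes at an adjusted p below 0.05, with 104 to 428 genes at an unadjusted p below 0.05 and 0 of the 36 among them. RLE and upper-quartile factors, no filter beyond 1 count, DESeq2 and both RPKM fits turned the sign of none of the genes given with a value in every library. The median log2 fold change of the 36 genes was 0.03 to 0.06 under these, the filter of 10 counts and the cardiomyocyte covariate, 0.01 with the length trend removed, and -0.10 in limma-voom with quality weights. In the fit of all libraries 12 of the 36 values were negative. The number was 9 in both RPKM fits, 11 with upper-quartile factors and 13 with no filter beyond 1 count. Some of the remaining genes therefore turned sign under these 4 settings. With quality weights 35 were negative, and 33 when antimiR-195 replicate 2 was dropped as well as the length trend, where the median was -0.09.

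Quality weights turned the sign of the log2 fold change of Ndufs1 (0.012), Ndufs3 (-0.093), Ndufs7 (-0.16), Ndufv1 (-0.025), Ndufv2 (-0.050), Ndufs4 (-0.081), Ndufs6 (-0.24), Ndufa13 (-0.090), Ndufa4 (-0.055), Ndufb10 (-0.050), Ndufb4 (-0.063), Ndufa11 (-0.11), Ndufb2 (-0.13). Dropping antimiR-195 replicate 2 together with the length trend turned that of Ndufs1 (0.0066), Ndufs3 (-0.11), Ndufs7 (-0.16), Ndufv1 (-0.078), Ndufv2 (-0.054), Ndufs4 (-0.082), Ndufs6 (-0.21), Ndufa13 (-0.096), Ndufb10 (-0.046), Ndufb4 (-0.015), Ndufa11 (-0.16), Ndufb2 (-0.24). The removal of the trend alone turned Ndufs7 (-0.028), Ndufs6 (-0.058), the cardiomyocyte covariate Ndufs7 (-0.026), Ndufs6 (-0.0074), and the filter of 10 counts in total Ndufs7 (-0.0075). These lists cover only the genes given with a value in every library. Among all the complex I genes, 16 values were negative with the trend removed, 15 with the covariate and 14 with the filter. In the fit of all libraries 12 were negative, so genes outside the lists turned sign too. The cause was not tested.

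With each library left out in turn, the median ranged over -0.18 to 0.19 and the number of negative values over 2 to 35, with 0 genes called throughout. The lowest median and the 35 came without antimiR-195 replicate 2, and the highest median and the 2 without hydrogel replicate 3. By gene the range was -0.16 to 0.012 for Ndufs1, -0.15 to 0.15 for Ndufs3, -0.22 to 0.13 for Ndufs7, -0.22 to 0.12 for Ndufs8, -0.11 to 0.12 for Ndufv1, -0.099 to 0.20 for Ndufv2, -0.15 to 0.19 for Ndufs4, -0.33 to 0.20 for Ndufs6, -0.18 to 0.28 for Ndufa13, -0.13 to 0.23 for Ndufa4, -0.13 to 0.37 for Ndufb10, -0.10 to 0.28 for Ndufb4, -0.18 to 0.32 for Ndufa11, -0.22 to 0.027 for Ndufb8, -0.23 to 0.070 for Ndufb9, -0.19 to 0.26 for Ndufb2, -0.18 to 0.067 for Ndufs5. No paired analysis was possible because replicate numbers were given in accession order and the labels share none between the groups. With 4 libraries a group, differences within the intervals given are not excluded, and larger ones than their half-widths could also go uncalled.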
